A study of Mus musculus with 6 samples.

Results

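A set of 10 transcription factors that build and mark the epicardial and fibroblast lineages of the heart was followed by name in the transcriptomes of cultured cardiac fibroblasts (CFs): *Tcf21*, *Wt1*, *Gata4*, *Gata5*, *Gata6*, *Hand2*, *Twist1*, *Snai2*, *Mef2c* and *Nr2f2*. Of these 10 genes, 9 were measured among the 19446 genes of the table, and all 9 passed the filter on low values (at least 10 reads in at least 2 libraries), which 15948 genes passed. *Gata5* was not analysed here. RNA-seq compared CFs from wild type (WT) and CharmeKO mice, 3 libraries each, to ask what the loss of the long non-coding RNA *Charme* changes in these cells. Both groups had the C57BL/6J background per the methods and an age of 5 weeks per the labels. For the explant cultures the methods give a range of ages around 5 weeks. CharmeKO mice carry a poly(A) signal inserted in the *Charme* locus and WT mice do not; no other allele or treatment was given in the sources used here. The CFs grew out of atrial fragments for 2 weeks on fibronectin in medium with 20% fetal bovine serum. Per the methods, cells were then collected weekly, at most 3 times, and used at early passage. Which harvest or passage went into each library was not stated. The CFs are therefore atrial outgrowth cells after culture, and the methods speak of tissue from 6 littermates without tying animals to libraries.

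Most fibroblasts of the heart descend from the epicardium, the mesothelial sheet around it, whose cells leave the layer by an epithelial to mesenchymal transition. *Wt1* and *Gata4* act in the epicardial layer, *Tcf21* directs its derivatives to the fibroblast fate, and *Twist1* and *Snai2* repress epithelial genes during the transition. *Gata6* and *Hand2* shape the embryonic heart and persist in its stroma, *Mef2c* drives muscle genes and is also used by endothelial and myeloid cells, and *Nr2f2* confers atrial and venous identity.

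Between 38330019 and 46797446 reads were assigned to genes per library. The 1 entry of the table outside the Ensembl annotation held 5, 15 and 11 reads (WT 1 to 3) and 0, 6 and 3 reads (CharmeKO 1 to 3). The table does not say whether this is *Charme*, which the methods say was added to the annotation, so the genotype labels could not be checked from it with certainty. All 14 fibroblast markers were measured, with a summed level of 25978 to 54636 CPM (reads as a share of all assigned reads, times 1e6) in WT and 34107 to 45173 in CharmeKO. Of 12 cardiomyocyte markers, 7 were measured, of which *Ryr2* and *Ttn* did not pass the filter. *Tnnt2* had 57.1 to 757 normalised reads, *Myl4* 73.7 to 253 and *Nkx2-5* 27.5 to 544. *Tnni3* had 12.8 to 97.3 and *Actn2* 0.87 to 53.4. The 7 measured markers of that cell type summed to 8.96 to 26.3 CPM in WT and 10.1 to 27.6 CPM in CharmeKO. The values below are normalised reads, that is, reads divided by a size factor per library.

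The basic helix-loop-helix factors *Hand2* and *Tcf21* are shown first by DNA upstream of their start sites, as RefSeq gives it for the mouse assembly GRCm38.p6. The *Tcf21* window does not reach its start site. *Hand2* is shown because its antisense partner *Hand2os1* starts in this window and parted from it in the libraries described further on. *Tcf21* is shown as the counterpart, since like *Gata4* it was highest in WT 1 and CharmeKO 1. The 2 genes differed in WT 2, where *Tcf21* was high and *Gata4* low. Capitals in the *Hand2* sequence mark the stretch between the *Hand2os1* start site and the *Hand2* start site. The *Tcf21* window is in lower case throughout, since no such stretch was marked in it.
Hand2, chr8:57320733-57320982, plus strand: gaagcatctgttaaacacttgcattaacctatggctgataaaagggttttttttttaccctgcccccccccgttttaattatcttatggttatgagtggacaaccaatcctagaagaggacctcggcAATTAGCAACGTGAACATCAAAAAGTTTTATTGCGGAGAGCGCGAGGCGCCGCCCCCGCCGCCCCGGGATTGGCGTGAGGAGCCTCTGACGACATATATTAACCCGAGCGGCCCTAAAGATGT
Tcf21, chr10:22820175-22820393, minus strand: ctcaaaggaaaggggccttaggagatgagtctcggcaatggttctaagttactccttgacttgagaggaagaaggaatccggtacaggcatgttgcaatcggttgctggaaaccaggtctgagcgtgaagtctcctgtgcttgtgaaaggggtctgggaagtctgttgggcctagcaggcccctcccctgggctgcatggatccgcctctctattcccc
RefSeq start sites of *Hand2* (position 57320983) and *Hand2os1* (position 57320859) lie 124 bases apart and point away from each other. The E-box (CANNTG, the letters bound by basic helix-loop-helix factors) was found 2 times in the *Hand2* window, with both strands searched. The GATA site (the letters AGATAA or the letters AGATAG or the letters TGATAA or the letters TGATAG, on either strand, with no overlap with the E-box letters) also occurred 2 times, starting 215 and 172 bases upstream of the *Hand2* start site. All 4 matches lie outside the capitals, on the far side of the *Hand2os1* start. In the *Tcf21* window of 219 bases, 0 E-boxes and 0 GATA sites were found. That window begins at position 22820175, and the bases between it and the RefSeq start site at 22820143 were not searched. Among 32851 RefSeq mouse promoters, 66.2% held an E-box and 26.5% a GATA site in 250 bases, against 62.0% and 24.5% in 219 bases. The *Hand2* window held 15 CpG dinucleotides, against a median of 6 over all promoters of that length. These matches are letters in a window, not measured binding. The table of promoters covered 6 of the 10 factors (*Tcf21*, *Hand2*, *Twist1*, *Mef2c*, *Nr2f2* and *Gata5*); *Wt1*, *Gata4*, *Gata6* and *Snai2* had no entry.

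None of the 9 measured factors was called between CharmeKO and WT. limma on log2(value + 1), adjusted over 15948 genes, called 0 of them at an adjusted p under 0.05, against 0% of all tested genes (0 genes), and every factor had an adjusted p of 0.9999. At an unadjusted p under 0.05 there were also 0 of the 9, against 143 genes (0.897%) overall. edgeR called 0 genes, DESeq2 called 8 genes (0.0502%) or, with the replicate number as a term, 64 genes (0.401%), and none of these was a lineage factor. WT and CharmeKO values overlapped for each of the 9, whereas 656 genes (4.11%) had groups that did not overlap, 2.14% higher and 1.98% lower in CharmeKO. Relative to WT, 3 factors had a higher mean log2 value in CharmeKO and 6 a lower one, with a median log2 fold change of -0.21 against 0.0022 for all tested genes. A missed threshold does not show that these genes are alike in the 2 genotypes, given the errors below. In bulk RNA, fewer cells of a type and less RNA per cell cannot be told apart.

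**Figure D1:**
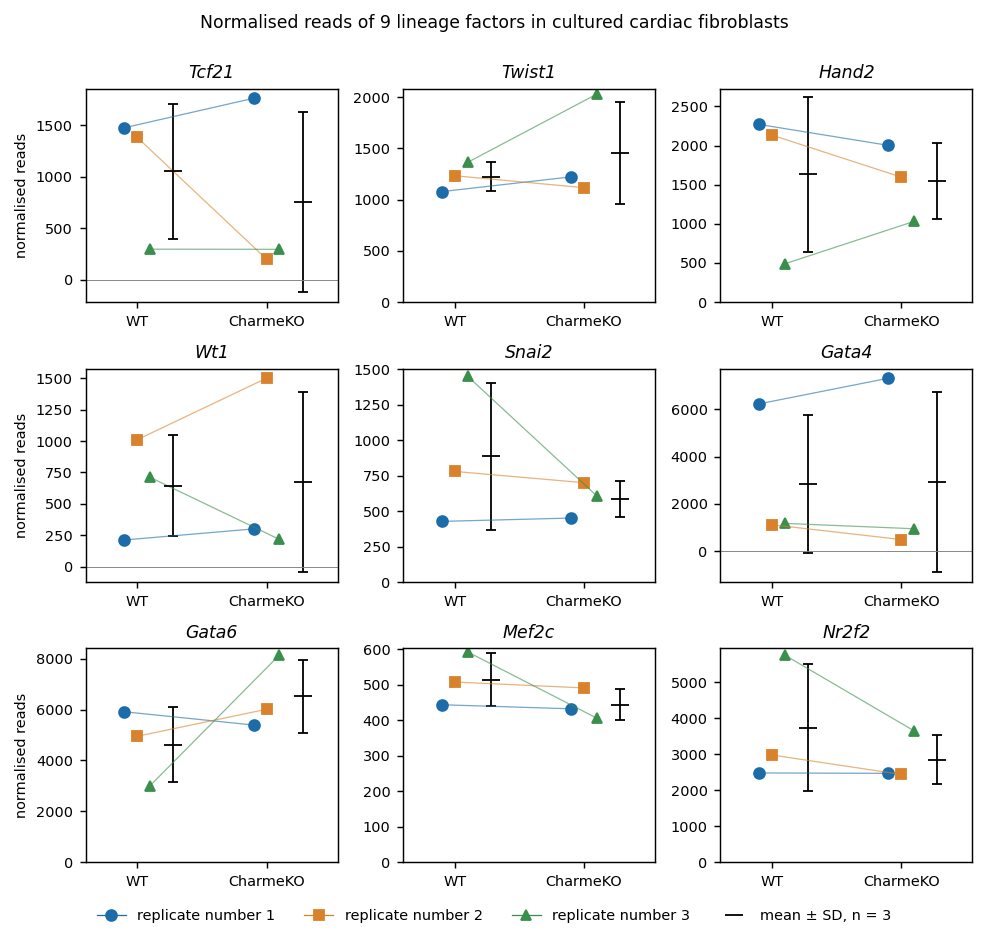
Normalised reads of the 9 measured factors in each library, by genotype. Points are libraries, coloured by replicate number with lines joining equal numbers, and black bars are the mean ± SD of 3 libraries. *Gata4* sits at 6221 and 7303 in the libraries numbered 1 and between 498 and 1180 in the other 4, and no factor separates WT from CharmeKO.

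*Tcf21* (ENSMUSG00000045680, GRCm38 chr10:22817281-22820174, minus strand) encodes the factor that commits epicardial cells to the fibroblast lineage and is the usual mark of resident CFs. Libraries 1 to 3 had 1477, 1384 and 296 normalised reads in WT and 1764, 199 and 294 in CharmeKO. High and low libraries were equal in number, and the low ones were WT 3, CharmeKO 2 and CharmeKO 3, so the groups overlapped. CharmeKO against WT gave a log2 fold change of -0.85 (SE 0.974, limma adjusted p = 0.9999). Nearly all of it came from replicate number 2, where the log2 difference was -2.79, against 0.26 for number 1 and -0.0076 for number 3.

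*Twist1* (ENSMUSG00000035799, chr12:33957671-33959829, plus strand), a mesenchymal factor that represses epithelial genes, was among the steadiest. It had 1078, 1233 and 1363 normalised reads in WT and 1222, 1117 and 2030 in CharmeKO. Only CharmeKO 3 stood away from the others, 1.88 times the lowest library. Its log2 fold change was 0.20 (SE 0.263), and -0.062 without CharmeKO 3.

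*Hand2* (ENSMUSG00000038193, chr8:57320983-57324633, plus strand) encodes a regulator of the right ventricle and the cardiac neural crest that is also transcribed in the epicardium. It had 2269, 2132 and 490 normalised reads in WT and 2002, 1597 and 1032 in CharmeKO. Both libraries numbered 3 were the lowest of all 6. The log2 fold change of 0.16 (SE 0.621) was positive although *Hand2* was lower in CharmeKO in pairs 1 and 2 (-0.18 and -0.42), because pair 3 differed by 1.07. Its sign turned under edgeR (-0.080) and DESeq2 (-0.085), so no direction is given for it.

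*Wt1* (ENSMUSG00000016458, chr2:105126529-105173616, plus strand), a zinc finger factor of the epicardium that most cells switch off as they leave the layer, varied 7.05 times over the libraries. It had 213, 1011 and 711 normalised reads in WT and 301, 1500 and 217 in CharmeKO. Both libraries numbered 2 were the highest, and WT 1 and CharmeKO 3 the lowest. *Wt1* had a log2 fold change of -0.21 (SE 0.874), with differences of 0.50, 0.57 and -1.70 in pairs 1 to 3, and its sign also turned under edgeR (0.063) and DESeq2 (0.058).

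*Tcf21* and *Wt1* were set against each other within each library, which takes scaling out. The log2 ratio of *Tcf21* to *Wt1* was 2.79, 0.45 and -1.26 in WT and 2.55, -2.91 and 0.43 in CharmeKO. In both libraries numbered 1 *Tcf21* was the more abundant of the pair in reads, and each group held at least 1 library with more *Wt1* reads. The mean was 0.66 ± 2.03 (SD, n = 3) in WT and 0.023 ± 2.75 (SD, n = 3) in CharmeKO. A two-sided exact permutation test over all splits gave p = 0.7 for the difference of -0.64, where the smallest possible p is 0.1.

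*Snai2* (ENSMUSG00000022676, chr16:14705852-14709385, plus strand), the zinc finger repressor of E-cadherin also called Slug, had 427, 779 and 1450 normalised reads in WT and 451, 700 and 607 in CharmeKO. WT 3 was far above the other 5 libraries, and both libraries numbered 1 were the lowest. For *Snai2* the log2 fold change was -0.44 (SE 0.453), and -0.0017 without WT 3.

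*Gata4* (ENSMUSG00000021944, chr14:63198922-63271692, minus strand), a zinc finger activator of cardiac genes that is needed in the epicardium and its precursors, varied the most, by 14.7 times. It had 6221, 1121 and 1180 normalised reads in WT and 7303, 498 and 953 in CharmeKO. Both libraries numbered 1 were more than 5 times the level of any other library, one from each genotype. Its log2 fold change was -0.41 (SE 1.12). Within pairs it was 0.23, -1.17 and -0.31, and its sign turned under edgeR (0.037) and DESeq2 (0.032).

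*Gata6* (ENSMUSG00000005836, chr18:11052064-11085635, plus strand), the paralogue of *Gata4* that shares many of its cardiac targets, did not follow that pattern. It had 5917, 4951 and 3008 normalised reads in WT and 5394, 6015 and 8153 in CharmeKO. WT 3 was the lowest and CharmeKO 3 the highest, so the same replicate number held both ends of the range. With a log2 fold change of 0.53 (SE 0.298) it had the lowest unadjusted limma p of the 9 factors, 0.122, and an adjusted p of 0.9999. The pairs differed by -0.13, 0.28 and 1.44.

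*Mef2c* (ENSMUSG00000005583, chr13:83504034-83667080, plus strand), a MADS-box activator of muscle and vascular genes, was the steadiest, with a highest library 1.46 times the lowest. It had 443, 507 and 592 normalised reads in WT and 432, 491 and 405 in CharmeKO. WT 3 was the highest and CharmeKO 3 the lowest, and the groups overlapped. For *Mef2c* the log2 fold change was -0.21 (SE 0.213), with pair differences of -0.038, -0.048 and -0.55.

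*Nr2f2* (ENSMUSG00000030551, chr7:70351944-70366735, minus strand), the orphan nuclear receptor COUP-TFII of atrial and venous cells, had 2474, 2972 and 5745 normalised reads in WT and 2463, 2432 and 3642 in CharmeKO. Both libraries numbered 3 were the highest. Its log2 fold change was -0.32 (SE 0.349), or 0.043 without WT 3. *Mef2c* and *Nr2f2* were the 2 factors lower in CharmeKO in all 3 pairs, as were 14% of all tested genes, and 0 factors were higher in all 3 pairs, against 16.4%. For *Nr2f2* the difference in pair 1 was only -0.0062.

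**Figure D2:**
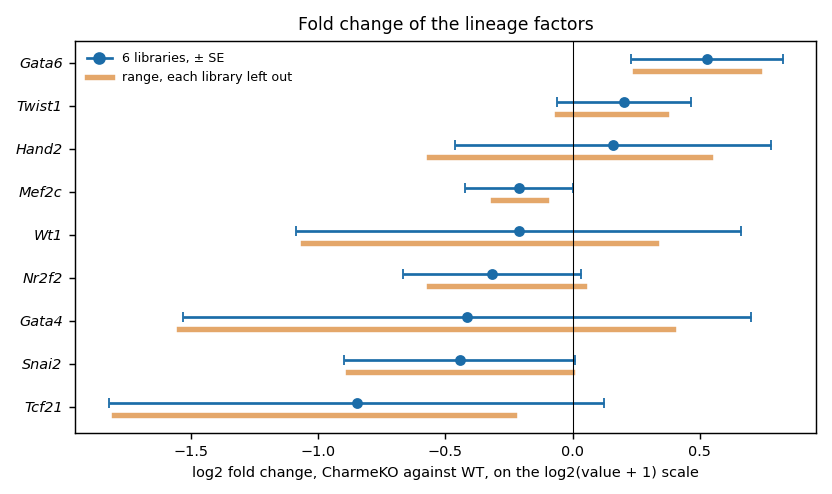
Log2 fold change of each factor, CharmeKO against WT, on the log2(value + 1) scale. Blue points are the limma estimates from all 6 libraries with their SE, and orange bars give the range when each library in turn is left out. *Gata6* lies highest at 0.53 and *Tcf21* lowest at -0.85, and 5 of the 9 orange bars (*Twist1*, *Hand2*, *Wt1*, *Nr2f2* and *Gata4*) cross 0.

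Single libraries weighed heavily on these comparisons. With 1 library left out, 0 to 3 factors had groups that did not overlap, against 8.48% to 15.6% of all tested genes. *Snai2*, *Gata6* and *Mef2c* no longer overlapped without WT 1, and *Tcf21*, *Gata4* and *Gata6* without CharmeKO 1. The others were *Hand2* without WT 3, *Mef2c* without CharmeKO 2 and *Nr2f2* without CharmeKO 3. Pairs 1 to 3 had a median absolute log2 difference of 0.18, 0.29 and 0.66 over the 9 factors, against 0.17, 0.28 and 0.32 over all tested genes.

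For 7 of the 9 factors most of the variation lay between replicate numbers, not genotypes. The replicate number took 93.9% of the sum of squares of log2 values for *Gata4*, 81.3% for *Hand2*, 78.3% for *Nr2f2* and 76.1% for *Wt1*. For *Twist1*, *Tcf21* and *Snai2* it took 60.9% to 65.3%. *Mef2c* (21.8%) and *Gata6* (3.46%) departed from this, and were the 2 factors with the largest share for genotype, 34.5% and 37.4%. In both, the remainder was larger than the genotype share, at 43.7% for *Mef2c* and 59.2% for *Gata6*. Over all tested genes the median share was 73.8% for the number and 5.91% for genotype, so a large share for the number is the rule in these libraries. With the replicate number as a block, limma still called 0 genes, and 0 of the 9 factors had an unadjusted p under 0.05, against 857 genes (5.37%). Over the 6 libraries the median SD of log2 values was 0.64 for the 9 factors and 0.42 for all tested genes, and 7 of the 9 lay above the latter.

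**Figure D3:**
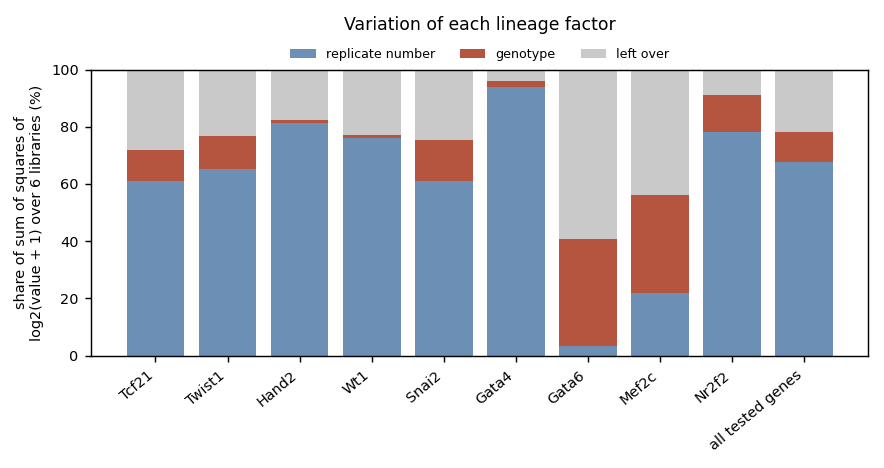
Share of the sum of squares of log2(value + 1) over 6 libraries that goes to replicate number, genotype and the remainder, for each factor and summed over all tested genes. *Gata4* is almost wholly replicate number (93.9%), whereas *Gata6* is 3.46% replicate number, 37.4% genotype and 59.2% remainder.

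The factors that stood apart in a replicate number were counted against all genes. *Tcf21* and *Gata4* were higher in both libraries numbered 1 than in the other 4, as were 23.6% of all tested genes, and *Snai2* was lower (21.8% of genes). *Wt1* was higher in both libraries numbered 2 (16.1% of genes). In both libraries numbered 3, *Twist1* and *Nr2f2* were above the rest (9.02% of genes) and *Hand2* was below (9.07% of genes). No factor was below the rest in both libraries numbered 2 (18.4% of genes). With 1 or 2 of 9 factors in each case, these counts are near those shares or too small to set apart from them.

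Some epicardial and mesothelial genes were high in the same libraries as *Gata4*. Of the 13 tested genes of that list, 6 were higher in both libraries numbered 1 than in the other 4, against 23.6% of all tested genes, namely *Upk3b*, *Upk1b*, *Msln*, *Tbx18*, *Lrrn4* and *Gpm6a*, and *Podxl* was lower. The remaining 6 had neither pattern. *Tbx18*, a T-box factor of the epicardium, had 6694, 1430 and 2030 normalised reads in WT and 6351, 1127 and 1867 in CharmeKO. *Upk3b*, a uroplakin of the mesothelial surface, had 4455, 322 and 651 in WT and 4537, 656 and 297 in CharmeKO. Both stood high in the same 2 libraries as *Gata4*, and *Upk1b* ranged from 20.9 to 4648. No correlation is given, since the values fall into 2 high and 4 low libraries. These genes were named after their values were seen. The summed epicardial list ranged from 303 to 625 CPM in WT and from 185 to 640 CPM in CharmeKO, with a median log2 fold change of -0.028. *Sema3d* weighed on this sum, with 9367 reads in WT 2 and 13102 in CharmeKO 3. *Upk3b* had 302 and 341 reads in those 2 libraries, so the sum does not follow the genes named above.

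*Wt1* did not follow these epicardial genes. In the libraries numbered 1, where they were high, *Wt1* had only 213 and 301 normalised reads. *Bnc1*, a mesothelial zinc finger gene that was like *Wt1* higher in both libraries numbered 2, had 743, 1003 and 308 normalised reads in WT and 973, 2093 and 146 in CharmeKO. Pearson's r of log2 values over the 6 libraries, which share their preparation, was 0.57 for *Wt1* and *Bnc1*. This was the highest r with *Wt1* among the epicardial genes compared. The others ran from -0.76 (*Tbx18*) to 0.42 (*Podxl*), and most were negative. *Gata4* and *Wt1*, both factors of the epicardium, thus peaked in libraries of different replicate numbers.

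**Figure D4:**
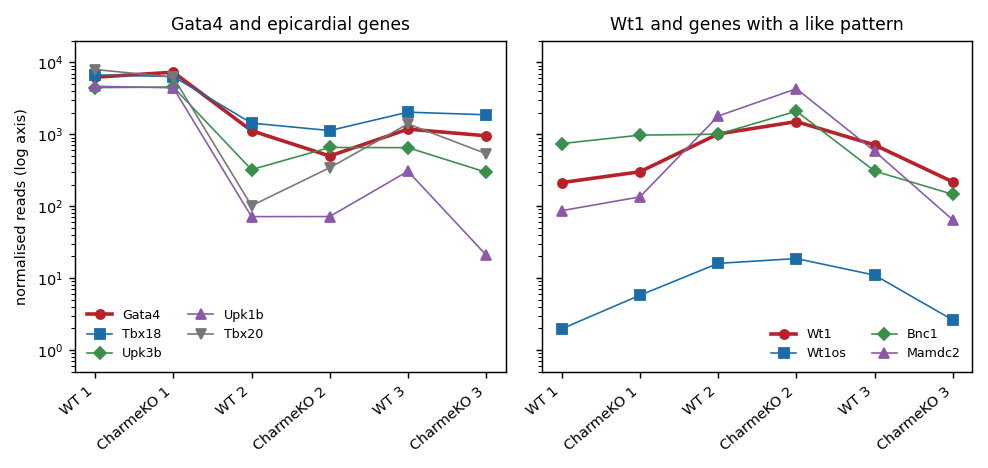
Normalised reads on a log axis in each library, ordered by replicate number. The left panel shows *Gata4* with *Tbx18*, *Upk3b*, *Upk1b* and *Tbx20*, all highest in WT 1 and CharmeKO 1, and the right panel shows *Wt1* with *Wt1os*, *Bnc1* and *Mamdc2*, all highest in CharmeKO 2.

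Markers of other cell types differed between the same libraries. Of 12 haematopoietic markers, 8 were higher in both libraries numbered 1 than in the other 4 (23.6% of all tested genes). In both numbered 3, 10 were lower (9.07% of all tested genes). *Cd14* went another way, lower in both libraries numbered 1 and higher in both numbered 2. Of 8 tested endothelial and endocardial markers, 4 (*Cdh5*, *Tek*, *Vwf* and *Sox17*) were higher in both libraries numbered 1. The haematopoietic markers summed to 47.2 to 202 CPM in WT and 25.5 to 430 CPM in CharmeKO. *Ptprc*, the pan-leukocyte gene CD45, was at 0 reads in CharmeKO 3. Smooth muscle and pericyte markers summed to 170 to 853 CPM in WT, with the top in WT 3 where *Nr2f2*, *Snai2* and *Mef2c* were also highest, and to 148 to 188 CPM in CharmeKO. All 12 tested genes of that list had a lower mean log2 value in CharmeKO and limma called 0. Their median log2 fold change was -1.66, against 0.0022 for all tested genes. In all 3 pairs, 8 were lower, as were 14% of all tested genes. WT 3 weighed on these differences, with 14655 normalised reads of *Cnn1* against 774 and 457 in WT 1 and WT 2. *Rgs5*, *Kcnj8*, *Abcc9* and *Notch3* were instead highest in WT 2. DESeq2 with the replicate block called 2 of the 12, against 0.401% of all tested genes. They were *Actg2* (adjusted p = 8.51e-07) and *Myh11* (adjusted p = 0.000603), both lower in CharmeKO. Endothelial and endocardial markers summed to 187 to 405 CPM in WT and 176 to 650 CPM in CharmeKO. The top was CharmeKO 3, where *Npr3* had 28215 reads, *Flt1* 1380 and *Nfatc1* 784. The other measured genes of that list had 28 reads or fewer there, among them *Cdh5* with 0. *Pecam1*, which defines endothelial cells, did not pass the filter. The part of these cells in the levels of the lineage factors was not tested.

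Antisense partners were measured for 3 of the factors. The libraries were made with a directional kit and counted on 1 strand, so reads of a gene and its partner are told apart as far as the kit keeps strand. *Hand2os1* (ENSMUSG00000100510, chr8:57281117-57324233, minus strand), also known as Upperhand, is a long non-coding RNA that runs away from the *Hand2* start and whose annotation overlaps *Hand2* on the opposite strand. It had 211, 377 and 71.4 normalised reads in WT and 173, 89.5 and 13.0 in CharmeKO. Both libraries numbered 3 were low, as for *Hand2*, but CharmeKO 3 was lower for *Hand2os1* than WT 3 whereas *Hand2* was higher there. The ratio of *Hand2* to *Hand2os1* reads was 10.8, 5.66 and 6.86 in WT and 11.6, 17.8 and 79.1 in CharmeKO, the last from 15 reads of *Hand2os1*, so the lowest CharmeKO ratio lay above the highest WT ratio by a small step in pair 1 and a large one in pair 3. This pattern was noticed after the values were seen and was given no test.

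*Hand2os1* was lower in CharmeKO in all 3 pairs, by -0.28, -2.06 and -2.37 on the log2 scale. Its log2 fold change was -1.57 (SE 1.05, limma adjusted p = 0.9999), and limma with a block for the replicate number gave an unadjusted p of 0.0274 and an adjusted p of 0.80. DESeq2 with the same block gave an adjusted p of 0.267. *Hand2os1* thus passed no adjusted threshold. Its log2 fold change ranged from -2.33 to -0.52 with each library left out in turn, and the smallest, -0.52, was that without CharmeKO 3.

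*Gata6os* (ENSMUSG00000097222, chr18:10987944-11052567, minus strand) overlaps the start of *Gata6* and kept closer to it. It had 201, 168 and 109 normalised reads in WT and 167, 234 and 510 in CharmeKO, with WT 3 lowest and CharmeKO 3 highest as for *Gata6*. The read ratio of *Gata6* to *Gata6os* was 25.7 to 32.2 in 5 libraries and 16.0 in CharmeKO 3. *Gata6os* had a log2 fold change of 0.81 (SE 0.484, limma adjusted p = 0.9999). *Wt1os* (ENSMUSG00000074987, chr2:105076538-105126510, minus strand) starts 19 bases from *Wt1*, and its 2 to 19 reads per library followed *Wt1* with r = 0.97. Its log2 fold change was -0.11 (SE 0.964), from too few reads to read a direction.

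**Figure D5:**
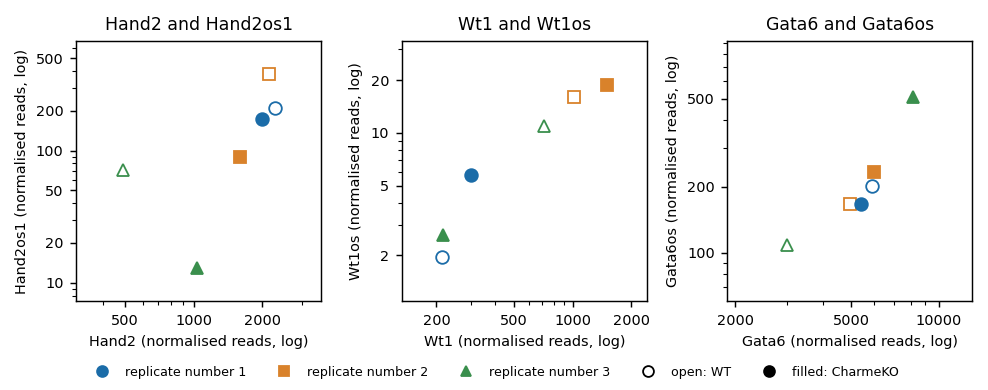
Normalised reads of *Hand2*, *Wt1* and *Gata6* against those of their antisense partners, both axes logarithmic. Each point is a library, open for WT and filled for CharmeKO, with shape and colour for the replicate number. *Wt1* and *Gata6* are high in the libraries where their partners are high, whereas CharmeKO 3 has 1032 normalised reads of *Hand2* and only 13.0 of *Hand2os1*.

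The levels of the factors were also compared per length, as RPKM (reads per kilobase of annotated exon, relative to the library total), using exon unions of the GENCODE M21 annotation (GRCm38). In descending order of mean log2 level, the mean ± SD over all 6 libraries was 20.8 ± 6.52 for *Gata6*, 19.9 ± 5.43 for *Twist1*, 16.3 ± 7.05 for *Hand2* and 17.4 ± 18.05 for *Gata4*. *Nr2f2* (9.19 ± 3.50), *Snai2* (8.80 ± 4.40) and *Tcf21* (9.14 ± 7.11) followed, with *Wt1* at 2.61 ± 2.15 and *Mef2c* at 0.735 ± 0.105. Only 1 step between neighbours was larger than its spread over libraries, that from *Wt1* to *Mef2c*, which held in 6 of 6 libraries. The exon union of *Mef2c*, 15.7 kb of many alternative exons, lowers its value per length.

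For each factor the single most similar gene over the 6 libraries was sought among 11574 genes with a mean of at least 100 normalised reads. With 6 points and so many genes a high r is the rule, and no p is given. It was *Septin8* for *Tcf21* (r = 0.977), *Tbpl1* for *Twist1* (0.990), *Oas1c* for *Hand2* (0.996), *Mamdc2* for *Wt1* (0.993) and *Prepl* for *Snai2* (0.990). For *Gata4* it was *Sh3glb2* (0.996, resting on the 2 libraries numbered 1), for *Gata6* the planar polarity gene *Prickle1* (0.985), for *Mef2c* the fibroblast surface antigen gene *Thy1* (0.991) and for *Nr2f2* *Tmcc2* (0.995). *Thy1* had 4602, 14705 and 29470 normalised reads in WT and 4485, 10398 and 2658 in CharmeKO, a far wider range than that of *Mef2c*. Between the factors themselves, the highest r were 0.88 for *Snai2* and *Mef2c* and 0.85 for *Snai2* and *Nr2f2*. The lowest were -0.94 for *Hand2* and *Nr2f2* and -0.91 for *Gata6* and *Mef2c*.

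Other genes of the same circuits were read from lists. Among 9 tested paralogues of the factors, 4 had a higher and 5 a lower mean log2 value in CharmeKO and limma called 0, as did DESeq2 with and without the block, with a median log2 fold change of -0.0054. The paralogues with the lowest unadjusted p were *Gata2*, the blood and endothelial GATA factor (1.15, SE 0.574), *Snai1*, the repressor related to *Snai2* (-0.36, SE 0.179), and *Mef2d* (-0.29, SE 0.186). *Gata2* was higher in CharmeKO in all 3 pairs, with 630, 483 and 1157 normalised reads in WT and 692, 1963 and 2807 in CharmeKO, which overlapped.

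Partners and inhibitors of the factors include the E proteins that dimerise with *Tcf21*, *Twist1* and *Hand2* and the Id proteins that block them. They also include the FOG cofactors of the GATA factors and the class IIa histone deacetylases that repress *Mef2c*. *Srf*, *Ep300*, *Basp1* and *Wtip* complete the list. Of 17 tested, 9 were higher and 8 lower, and limma and both DESeq2 fits called 0, with a median log2 fold change of 0.069. The FOG gene *Zfpm1* had a log2 fold change of 0.44 (SE 0.285), *Srf* of -0.31 (SE 0.207) and *Hdac4* of -0.19 (SE 0.245). In both libraries numbered 1, where *Tcf21* was highest, 8 of these 17 genes were lower than in the other 4, among them the E protein genes *Tcf3*, *Tcf4* and *Tcf12* and the FOG gene *Zfpm2*, against 21.8% of all tested genes.

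Of 24 other tested transcription factors of cardiac mesenchyme, 11 were higher and 13 lower in CharmeKO and limma called 0, with a median log2 fold change of -0.040. DESeq2 with the replicate block, which called 0.401% of all tested genes, called *Prrx2*, a homeobox gene of mesenchyme (log2 fold change -1.49, adjusted p = 0.0260). *Tbx2*, a T-box repressor of the atrioventricular canal, had 259, 564 and 1678 normalised reads in WT and 253, 109 and 92.2 in CharmeKO. *Foxf1*, a forkhead factor of mesenchyme, had 648, 1107 and 2127 in WT and 577, 560 and 254 in CharmeKO. Both were named for their low unadjusted p, which favours groups that do not overlap. They were the 2 of the 24 genes without overlap, against 4.11% of all tested genes, and the gap in number 1 was small. *Tbx2* had a log2 fold change of -2.19 (SE 0.733) and *Foxf1* one of -1.40 (SE 0.517), each with a limma adjusted p of 0.9999. *Zeb1*, a repressor of epithelial genes that works beside *Snai2* and *Twist1*, was at -0.44 (SE 0.193). Of the 14 fibroblast markers, 8 were higher and 6 lower and limma called 0. DESeq2 with the replicate block (0.401% of all tested genes called) called *Dpt* (log2 fold change 0.84, adjusted p = 0.0190). The markers with the lowest unadjusted p were *Thy1* (-1.34, SE 0.769), *Gsn* (-0.32, SE 0.231) and *Ddr2* (-0.23, SE 0.180).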

How the data were processed

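RNA-seq values of 6 libraries of cultured CFs, 3 WT and 3 CharmeKO, were analysed. The authors aligned reads with STAR (version not given in the sources used here) to an assembly that the labels name GRCm39. The labels also list GRCh38. Reads of the reverse strand were counted on an Ensembl annotation to which *Charme* had been added. The authors left out genes with few counts and normalised with DESeq2. STAR counts only uniquely placed reads in 1 gene, so reads shared with near-identical copies are lost. As deposited, values are a signal of reads over a size factor for each library. Division by each library's step gave whole reads for 100% of 116676 values (tolerance 1e-06), with totals of 43168672, 38330019 and 38498183 reads in WT 1 to 3 and 44709206, 39823822 and 46797446 in CharmeKO 1 to 3. Of the 19446 rows, 324 had no symbol.

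The main test was limma 3.58.1 (R 4.3.3) (variance trended on mean level) of log2(value + 1), with genotype alone in the model, for 15948 genes that reached 10 reads in 2 libraries or more, two-sided, with Benjamini-Hochberg adjustment and a threshold of 0.05. Fold changes on this scale understate those of low genes. edgeR 4.0.16 and DESeq2 1.42.0 were run on the recovered reads as alternatives, and the script was tested on simulated data. Exact permutation tests of 3 against 3 cannot go below p = 0.1. The deviations of same-numbered libraries from their group means correlated with r = 0.762, 0.514 and 0.217 over genes, all above the minimum of 0.1, so the numbers were taken to pair the libraries; no source says what they share. Unlike numbers gave r of -0.643 to 0.222, the highest for WT 2 with CharmeKO 3, so number 3 is the weakest pair. No source ties libraries to animals or cultures, so p-values measure the spread between these libraries, which may be technical.

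Factors and gene lists were chosen with earlier results of these data known. Named are all 10 factors, the antisense genes, up to 3 genes of lowest unadjusted p per list, and the gene most alike to each factor; for marker lists of other cell types only counts and sums are given, beside genes named after their values were seen. Coordinates are those of GENCODE M21 (GRCm38), in which 19373 of 19445 Ensembl identifiers were found, and not of the build the authors used. Alternatives were other tests, scalings, pseudocounts and filters, the replicate block, and each library or pair left out. Plots were drawn with matplotlib 3.10.9.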

Additional observations from a re-analysis of the deposited data

How the results depend on the processing

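No factor passed the adjusted threshold under any alternative run. The count of genes called was 8 with DESeq2 and 64 with DESeq2 and the replicate block, an alternative added after the data were seen, and 0 under the others. The replicate block changed no call of a factor. Log2 fold changes turned sign with edgeR for *Hand2* (-0.080), *Wt1* (0.063) and *Gata4* (0.037), and with DESeq2 for *Hand2* (-0.085), *Wt1* (0.058) and *Gata4* (0.032). Without pair 2, *Tcf21* was at 0.12, and without pair 3, *Hand2* was at -0.30, *Wt1* at 0.53 and *Wt1os* at 0.70, in fits also added later. The cause was not tested. With each library left out in turn, the range was -0.062 to 0.37 for *Twist1*, -0.56 to 0.54 for *Hand2*, -1.06 to 0.33 for *Wt1*, -1.55 to 0.40 for *Gata4*, -0.56 to 0.043 for *Nr2f2* and -0.87 to 0.45 for *Wt1os*. *Tcf21* (-1.80 to -0.23), *Snai2* (-0.88 to -0.0017), *Gata6* (0.25 to 0.73) and *Mef2c* (-0.31 to -0.10) kept their sign in these fits. The number of factors whose groups did not overlap ranged from 0 to 3 and the log2 difference in the ratio of *Tcf21* to *Wt1* from -1.90 to 0.83, with 0.43 when WT 1 was left out and 0.83 when CharmeKO 2 was. The exact test of the ratio within same-numbered pairs gave p = 0.75, where 0.25 is the smallest it can give. With genotype alone in the model, the SE of the factors was 0.213 to 1.12 on the log2 scale. With the replicate block it was 0.149 (*Nr2f2*) to 0.663 (*Tcf21*). For *Gata4* it fell from 1.12 to 0.286 with the block, and for *Gata6* it rose from 0.298 to 0.325. At 3 libraries a group these errors limit what could be seen.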
